A study of Homo sapiens with 12 samples.

Results

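The genes described here encode the PI3K, AKT and SGK kinases and the proteins that dock to them or restrain them. Of 9 genes named (SGK1, SGK3, AKT1, AKT2, PIK3CD, PIK3R1, PIK3AP1, IRS1 and PIK3IP1), a gene was measured where a probe set, a group of short probes for part of a transcript, was annotated with its symbol alone. This left 7 of the 9 genes, with 20 probe sets, among 19775 genes with such a probe set. SGK3 had none of its own, since its 3 probe sets are shared with the readthrough gene C8orf44-SGK3, and PIK3AP1 was not analysed here. Each gene is given first by its brightest probe set, the one with the highest mean over all arrays.

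PI3K enzymes add a phosphate to a membrane lipid, and the product calls kinases with a lipid-binding domain to the membrane. AKT is activated there by PDPK1 and by the mTORC2 complex, and SGK kinases depend on the same activators. In B cells the delta form of PI3K, whose catalytic subunit is PIK3CD and whose most common regulatory subunit is PIK3R1, passes on the signal of the B-cell receptor beside Btk, the kinase that ibrutinib blocks. The study asked how Btk inhibitors change gene expression in lymphoma cells. The genes below encode PI3K, AKT and SGK kinases or proteins that dock to them or restrain them.

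The cells were OCI-Ly7, an established cell line from a lymphoma of the diffuse large B-cell type. They were exposed for 24 hours to 1 μM PLS-123, a covalent Btk inhibitor of the study, to 10 μM or 1 μM ibrutinib, a covalent Btk inhibitor used as a drug, or to vehicle. Each of the 4 groups had 3 arrays (Affymetrix U133 Plus 2.0), lettered A to C, and 12 arrays were made in all. Neither the labels nor the methods tell if the 3 arrays of each treatment came from cells grown apart, so p values measure only the spread between these arrays, which may be technical.

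All values are log2 of the normalized intensity, so a difference of 1 is a doubling. Differences come from limma, a linear model fitted to all probe sets at once, and an adjusted p under 0.05 (Benjamini-Hochberg, over 54613 probe sets) counts as changed. A probe set is called dim where its mean lies below 3.87, the median over all probe sets. The 7 germinal centre B-cell genes measured as markers all stood between 9.06 and 12.1. Of the markers of other cells, 6 of 8 T and NK cell genes, 4 of 6 myeloid genes and 5 of 7 stromal and epithelial genes were dim, and the brightest of these 21 stood at 6.28. The 3′ minus 5′ difference of ACTB, a sign of RNA quality, averaged 2.93 ± 0.20 with PLS-123, 2.74 ± 0.08 with 10 μM ibrutinib and 2.67 ± 0.18 with 1 μM ibrutinib, against 2.64 ± 0.04 with vehicle (SD, n = 3 each; exact permutation p against vehicle 0.1, 0.1 and 1, where 0.1 is the smallest possible).

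The start regions of the genes are shown because members moved together at the dose of 1 μM PLS-123, SGK1 and IRS1 downward and PIK3IP1 upward. RefSeq (GRCh38.p14) gives 17 windows for the 7 genes, each running from 250 bases before a transcript start to 50 after it. They were searched on both strands for TGTTTAC, the core motif of FOXO factors, which AKT and SGK keep out of the nucleus, for CACGTG, the palindromic E-box, and for TATAAA, the TATA box. None of the 3 overlaps another. TGTTTAC was found in 1 of the 17 windows, in PIK3IP1, against 3.42% of all 35116 windows. CACGTG was found in 1, in IRS1, against 7.26% of all. TATAAA was found in all 3 windows of SGK1 and in none of the other genes, against 11.5% of all. It read along the gene only in the middle window of SGK1 (from base -15). In the outermost window (from base -96) and the innermost it was found as the reverse complement. A match says only that the letters are there. Below are the windows of PIK3IP1 (chr22:31292439-31292738, minus strand, TGTTTAC in capitals from base 17 after the start), of IRS1 (chr2:226799771-226800070, minus strand, CACGTG in capitals from base 36 after the start) and the innermost of the 3 windows of SGK1 (chr6:134174817-134175116, minus strand, with TTTATA, the reverse complement of TATAAA, in capitals from base -27).
PIK3IP1: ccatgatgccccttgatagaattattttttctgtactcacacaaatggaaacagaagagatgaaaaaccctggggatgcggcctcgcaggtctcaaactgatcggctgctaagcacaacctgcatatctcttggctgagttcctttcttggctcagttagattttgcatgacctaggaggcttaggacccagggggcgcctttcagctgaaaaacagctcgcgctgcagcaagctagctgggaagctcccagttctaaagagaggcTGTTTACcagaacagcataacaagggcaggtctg
IRS1: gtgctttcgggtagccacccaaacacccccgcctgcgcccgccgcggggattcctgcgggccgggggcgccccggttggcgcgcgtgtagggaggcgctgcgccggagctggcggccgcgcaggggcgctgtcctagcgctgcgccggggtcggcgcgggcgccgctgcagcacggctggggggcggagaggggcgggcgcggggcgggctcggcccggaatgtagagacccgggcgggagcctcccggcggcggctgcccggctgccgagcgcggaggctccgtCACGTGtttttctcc
SGK1: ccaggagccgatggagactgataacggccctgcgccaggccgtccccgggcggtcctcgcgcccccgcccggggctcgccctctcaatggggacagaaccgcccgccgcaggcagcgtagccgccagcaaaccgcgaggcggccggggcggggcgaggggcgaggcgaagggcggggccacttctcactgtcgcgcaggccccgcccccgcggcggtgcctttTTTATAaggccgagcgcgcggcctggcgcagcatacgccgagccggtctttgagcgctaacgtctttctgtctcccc

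With 1 μM PLS-123, 3 of the 7 genes fell (SGK1, IRS1 and AKT2) and 2 rose (PIK3IP1 and PIK3CD), while AKT1 and PIK3R1 did not pass the test. The count of 5 was 3 without vehicle A, vehicle C or PLS-123 B. Over all 19775 genes, 12.8% were lower and 7.54% higher in the same comparison. The shares over all genes take in dim genes, while no member was dim by its brightest probe set. With 10 μM ibrutinib, SGK1 and IRS1 fell and AKT1, PIK3CD and PIK3IP1 rose, against 5.82% lower and 6.71% higher over all genes. With 1 μM ibrutinib no member passed, as was the case for every gene on the array (0% lower and 0% higher). At an unadjusted p under 0.05 the counts with 1 μM ibrutinib were 0 of the 7 members and 1006 of all genes, and the smallest adjusted p of any probe set was 0.282. The median difference of the members was 0.17 with PLS-123, -0.02 with 10 μM ibrutinib and 0.03 with 1 μM ibrutinib, beside -0.04, -0.02 and -0.01 over all genes. The 3 comparisons share the vehicle arrays.

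**Figure D1:**
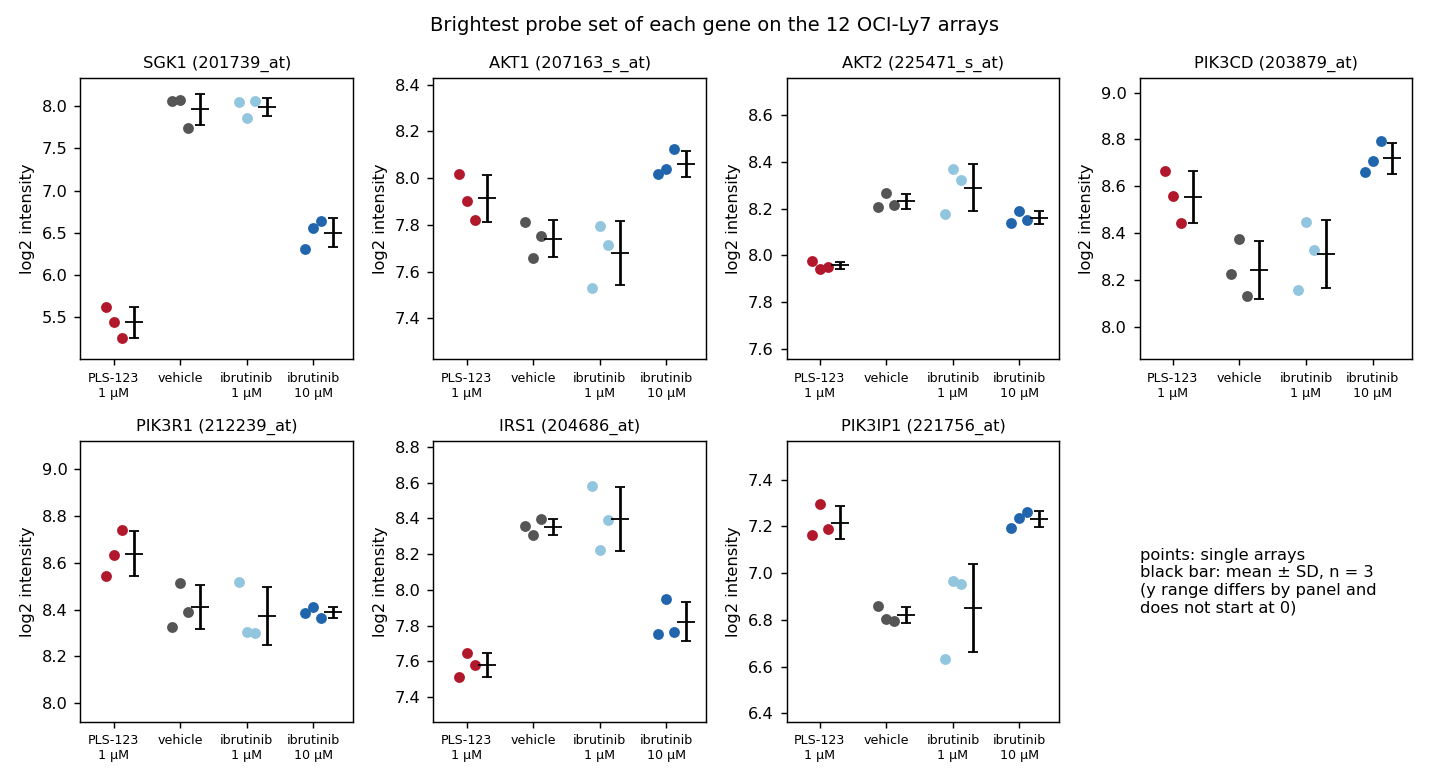
Log2 intensity (y axis, range set per panel) of the brightest probe set of each gene on single arrays (points) with mean ± SD (black, n = 3), for PLS-123, vehicle and both ibrutinib doses (x axis). SGK1 and IRS1 stand lower with PLS-123 and 10 μM ibrutinib than with vehicle, and 1 μM ibrutinib overlaps vehicle in all 7 panels.

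SGK1 is a kinase closely related to AKT, whose transcript is induced by many signals and whose protein is turned over fast. Its single probe set (201739_at; gene at chr6:134169256-134318112) stood at 5.62, 5.45 and 5.26 on the PLS-123 arrays, against 8.06, 8.08 and 7.75 on the vehicle arrays. Along the ibrutinib doses it stood at 8.04, 7.86 and 8.06 at 1 μM and at 6.31, 6.56 and 6.64 at 10 μM. Thus every PLS-123 array lay below every 10 μM ibrutinib array, every one of these lay below all vehicle arrays, and the 1 μM ibrutinib arrays lay among the vehicle arrays. The difference from vehicle was -2.52 ± 0.12 with PLS-123 (SE, 3 arrays in each group; adjusted p = 1.14e-08), or 5.73-fold lower. With 10 μM ibrutinib it was -1.46 ± 0.12 (adjusted p = 2.60e-06), or 2.75-fold lower. With 1 μM ibrutinib it was 0.03 (95% interval -0.24 to 0.30). SGK1 and IRS1 are named in a heat map that the study drew from these arrays, so their direction here is no independent evidence. A bulk array cannot tell less transcript per cell from fewer cells that hold it.

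IRS1 encodes an adaptor of insulin and IGF1 receptors, whose phosphorylated tyrosines bind the regulatory subunits of PI3K. Its brightest probe set (204686_at; gene at chr2:226731312-226799820) stood at 7.51, 7.65 and 7.58 with PLS-123, against 8.36, 8.31 and 8.40 with vehicle. It stood at 8.58, 8.22 and 8.39 with 1 μM ibrutinib and at 7.75, 7.95 and 7.76 with 10 μM. The PLS-123 and the 10 μM ibrutinib arrays all lay below the vehicle arrays. The difference from vehicle was -0.78 ± 0.10 with PLS-123 (adjusted p = 9.39e-05) and -0.53 ± 0.10 with 10 μM ibrutinib (adjusted p = 0.00257). A second probe set of IRS1 (238933_at) fell by 1.07 (PLS-123) and 0.88 (10 μM ibrutinib). The third (242979_at) had -0.18 and -0.42 and passed neither test, and its arrays overlapped those of vehicle.

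PIK3IP1 is a membrane protein that binds the catalytic subunit of PI3K and restrains it. Its brightest probe set (221756_at; gene at chr22:31281593-31292534) stood at 7.16, 7.29 and 7.19 with PLS-123, against 6.86, 6.80 and 6.79 with vehicle. At 1 μM ibrutinib it stood at 6.63, 6.97 and 6.95 and at 10 μM at 7.19, 7.24 and 7.26. All PLS-123 and all 10 μM ibrutinib arrays were above the vehicle arrays, while those of 1 μM ibrutinib lay on both sides. The difference from vehicle was 0.40 ± 0.09 with PLS-123 (adjusted p = 0.0101) and 0.41 ± 0.09 with 10 μM ibrutinib (adjusted p = 0.0115). A second probe set (221757_at) rose by 0.52 ± 0.09 and 0.59 ± 0.09, and the third (1555632_at), which is dim, had -0.06 and -0.21 and did not pass. The calls of SGK1, IRS1 and PIK3IP1 in both comparisons remained when any 1 of the 12 arrays was left out. Once ACTB entered the model as a covariate, the PLS-123 differences were -2.47 for SGK1, -0.88 for IRS1 and 0.53 for PIK3IP1, and all passed the test.

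AKT1 and AKT2 encode the AKT kinases found in most tissues. AKT1 has 1 probe set (207163_s_at; gene at chr14:104769349-104795748), which stood at 8.02, 7.90 and 7.82 with PLS-123, against 7.81, 7.66 and 7.75 with vehicle. It stood at 7.53, 7.80 and 7.71 with 1 μM ibrutinib and at 8.02, 8.04 and 8.12 with 10 μM. The arrays of PLS-123 and of 10 μM ibrutinib were all above those of vehicle, by a small margin for PLS-123. AKT1 rose by 0.32 ± 0.09 with 10 μM ibrutinib (adjusted p = 0.0414), and its difference with PLS-123 was 0.17 ± 0.09 (adjusted p = 0.236). The call with 10 μM ibrutinib was lost without any 1 of 8 arrays (the 3 vehicle and 3 ibrutinib 10 μM arrays, ibrutinib 1 μM C and PLS-123 B; adjusted p 0.0528 to 0.153).

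AKT2 stood, by its brightest probe set (225471_s_at; gene at chr19:40230317-40285345), at 7.98, 7.94 and 7.95 with PLS-123, against 8.21, 8.27 and 8.21 with vehicle. It stood at 8.18, 8.37 and 8.32 with 1 μM ibrutinib and at 8.14, 8.19 and 8.15 with 10 μM. The PLS-123 arrays were the lowest of the 12 and did not overlap any other group. AKT2 fell by 0.27 ± 0.08 with PLS-123 (adjusted p = 0.0243), and its difference with 10 μM ibrutinib was -0.07 ± 0.08 (adjusted p = 0.679). Of its 7 probe sets, 3 fell with PLS-123, the others being 226156_at (-0.46 ± 0.10) and 1560689_s_at (-0.40 ± 0.11), and the other 4 ran between -0.26 and 0.02 without passing. With 10 μM ibrutinib none of the 7 passed. With ACTB in the model the PLS-123 difference of AKT2 was -0.20 (adjusted p = 0.313). Its call was also lost after quantile normalization (0.0861), after centring on control probe sets (0.0574) and without any 1 of 5 arrays (the 3 vehicle arrays, PLS-123 B and PLS-123 C; adjusted p 0.0534 to 0.0856).

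PIK3CD, the catalytic subunit p110 delta found mainly in leukocytes, stood by its brightest probe set (203879_at; gene at chr1:9627258-9729114) at 8.67, 8.56 and 8.44 with PLS-123, against 8.22, 8.38 and 8.13 with vehicle. With 1 μM ibrutinib it stood at 8.16, 8.45 and 8.33 and with 10 μM at 8.66, 8.71 and 8.79. The 10 μM ibrutinib arrays were well above the vehicle arrays, and the lowest PLS-123 array was just above the highest vehicle array. PIK3CD rose by 0.48 ± 0.10 with 10 μM ibrutinib (adjusted p = 0.00622) and by 0.31 ± 0.10 with PLS-123 (adjusted p = 0.0461). Its second, much dimmer probe set (211230_s_at) had -0.33 ± 0.16 with PLS-123 and -0.07 ± 0.16 with 10 μM ibrutinib, passing neither test. The call with PLS-123 was lost without any 1 of 8 arrays (vehicle A and C, PLS-123 A and B, ibrutinib 1 μM C and the 3 ibrutinib 10 μM arrays; adjusted p 0.0558 to 0.159), and the difference was -0.0081 by the mean over both probe sets. By that mean it was 0.20 with 10 μM ibrutinib (adjusted p = 0.337).

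PIK3R1, the regulatory subunit p85 alpha, which holds the catalytic subunit and docks it to phosphorylated tyrosines, gave opposite directions by probe set. The brightest (212239_at; gene at chr5:68215756-68301821) stood at 8.54, 8.63 and 8.74 with PLS-123, against 8.33, 8.51 and 8.39 with vehicle. The second (212240_s_at) stood at 6.997, 7.13 and 7.23 with PLS-123, against 7.50, 7.36 and 7.41 with vehicle. So the PLS-123 arrays were all higher than vehicle by the brightest and all lower by the second. The differences were 0.23 ± 0.09 (adjusted p = 0.101) and -0.30 ± 0.08 (adjusted p = 0.0234), and that of the third probe set (212249_at) was -0.34 ± 0.14 (adjusted p = 0.118). The brightest passed with an intensity trend in the model (0.0368), after quantile normalization (0.0377) and with dim probe sets left out (0.0418). It did not pass by the methods' t-test (adjusted p = 0.184) or with ACTB in the model (0.11, adjusted p = 0.69). Here and below the methods' t-test carries the Benjamini-Hochberg adjustment over all probe sets, which the methods do not name. By the mean over the 3 probe sets the difference was -0.14 (adjusted p = 0.136). Within each array, the brightest minus the second probe set ran from 1.51 to 1.55 with PLS-123, against 0.83 to 1.16 with vehicle. These ranges do not overlap, and the difference of 0.53 has a two-sided exact permutation p of 0.1, the smallest that 3 against 3 arrays allow. This contrast was chosen after the values were seen. With 10 μM ibrutinib the 3 probe sets had -0.02, -0.11 and -0.14, and none passed.

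**Figure D2:**
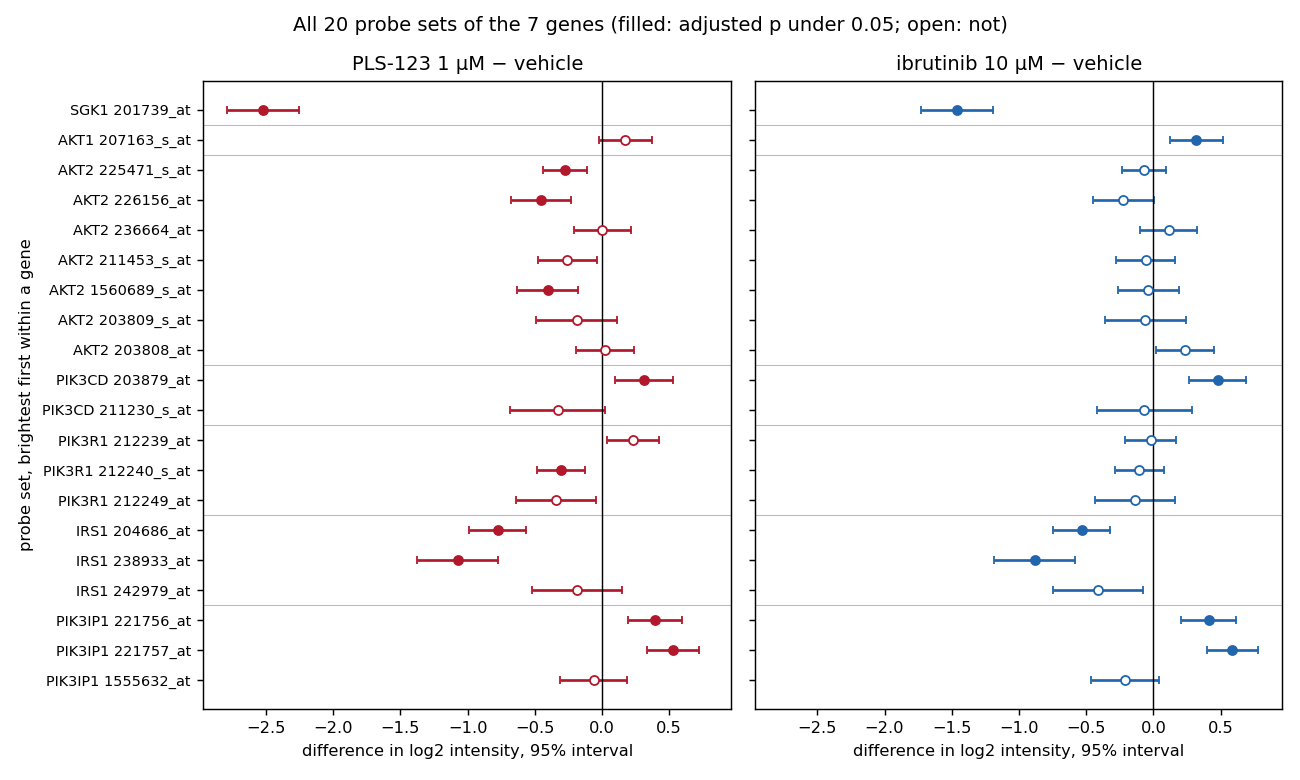
Difference in log2 intensity (x axis) with its 95% interval for all 20 probe sets of the 7 genes (y axis), PLS-123 minus vehicle on the left and 10 μM ibrutinib minus vehicle on the right, filled where the adjusted p is under 0.05. With PLS-123, 7 probe sets are lower and 3 higher, and those of PIK3R1 lie on both sides of 0. AKT2 alone holds 7 of the 20. No share over all probe sets is given beside these counts, so nothing is read from them.

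At the matched dose of 1 μM, PLS-123 and ibrutinib differed for 4 of the 7 members. SGK1 (-2.55 ± 0.12, adjusted p = 1.23e-08), IRS1 (-0.82 ± 0.10, adjusted p = 7.39e-05) and AKT2 (-0.33 ± 0.08, adjusted p = 0.0102) were lower with PLS-123. The AKT2 call was lost with the ACTB difference in the model (-0.27, adjusted p = 0.147), with limma on the 2 groups alone (adjusted p = 0.0573) and with the methods' t-test (adjusted p = 0.0837). PIK3IP1 was higher, by 0.36 ± 0.09 (adjusted p = 0.0199), a call that was lost without PLS-123 B (0.0756) or PLS-123 C (0.0505). It was also lost with limma on the 2 groups alone (adjusted p = 0.0823) and with the methods' t-test (adjusted p = 0.221). The IRS1 call was lost with the methods' t-test (adjusted p = 0.0521). Over all genes 10.1% were lower and 5.78% higher. For the other 3 members the 95% interval of PLS-123 minus ibrutinib was 0.04 to 0.43 for AKT1, 0.03 to 0.46 for PIK3CD and 0.07 to 0.46 for PIK3R1, with adjusted p values of 0.124, 0.141 and 0.0725. All 3 were called higher after quantile normalization. PIK3R1 passed with an intensity trend, after centring on control probe sets, with dim probe sets left out and without ibrutinib 1 μM A. None of the 3 passed by the methods' t-test (adjusted p = 0.325, 0.339 and 0.25) or with ACTB in the model (0.11, 0.0792 and 0.539). By the mean over probe sets PIK3CD had 0.03 (adjusted p = 0.902) and PIK3R1 -0.12 (adjusted p = 0.237).

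Between the ibrutinib doses, 10 μM against 1 μM, 5 of the 7 members differed, against 4.46% lower and 5.27% higher over all genes. SGK1 was lower at 10 μM (-1.49 ± 0.12) and so was IRS1 (-0.58 ± 0.10). AKT1 (0.38 ± 0.09), PIK3CD (0.41 ± 0.10) and PIK3IP1 (0.38 ± 0.09) were higher, with adjusted p values of 0.0191, 0.0202 and 0.0224. The calls of AKT1 and PIK3CD were lost without ibrutinib 1 μM A or C or ibrutinib 10 μM B or C (adjusted p 0.0503 to 0.0869), and that of PIK3IP1 without ibrutinib 1 μM A or ibrutinib 10 μM B or C (0.0604 to 0.0805), so that the count stood at 2 without ibrutinib 1 μM A, ibrutinib 10 μM B or ibrutinib 10 μM C and at 3 without ibrutinib 1 μM C. By the methods' t-test the calls of IRS1, AKT1, PIK3CD and PIK3IP1 were lost (adjusted p = 0.1385, 0.154, 0.157 and 0.241). With limma on the 2 groups alone those of AKT1 (adjusted p = 0.0586) and PIK3IP1 (adjusted p = 0.0866) were lost. AKT2 (-0.13, 95% interval -0.29 to 0.04) and PIK3R1 (0.01, -0.18 to 0.21) did not pass.

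PLS-123 at 1 μM and ibrutinib at 10 μM are unlike doses, and SGK1 was the member that differed between them. It was lower with PLS-123 (-1.06 ± 0.12, adjusted p = 0.00691), where 0.142% of all genes were lower and 0.0708% higher. With limma on these 2 groups alone the adjusted p was 0.0735, with ACTB in the model 0.053 (-1.03) and by the methods' t-test 0.189. The differences of the other 6 ran from -0.24 (IRS1, 95% interval -0.45 to -0.03) to 0.25 (PIK3R1, 0.06 to 0.44), and PIK3IP1 was nearest to 0 (-0.01, -0.22 to 0.19).

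**Figure D3:**
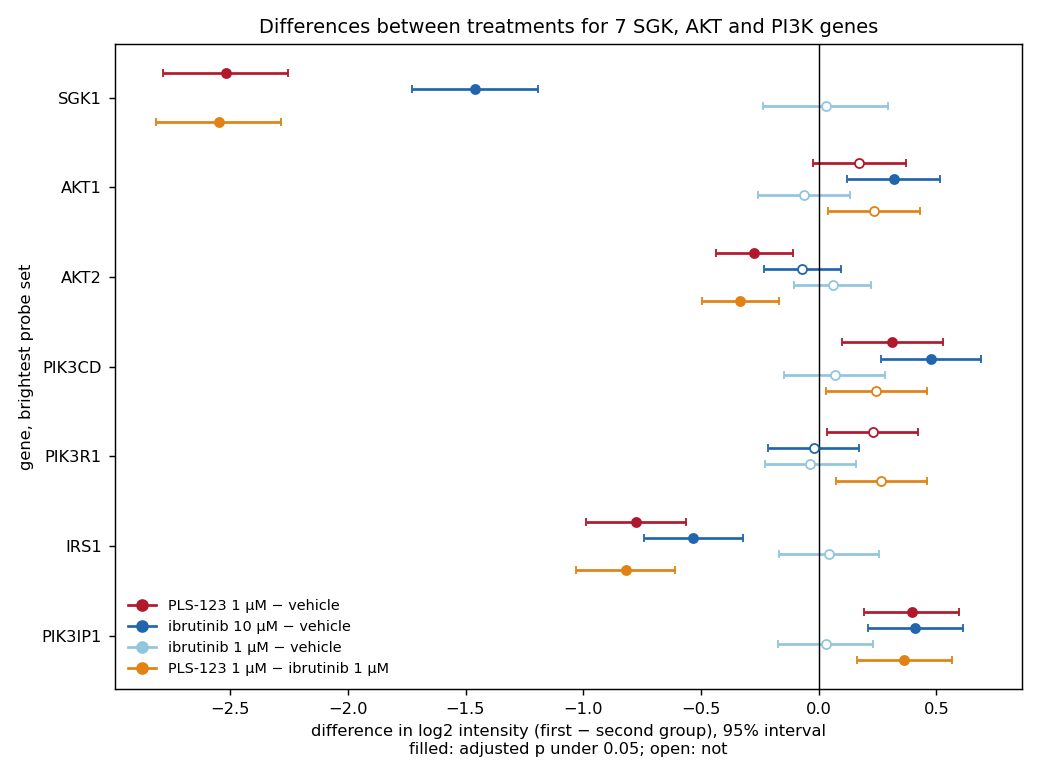
Difference in log2 intensity (x axis, first minus second group) with its 95% interval for the brightest probe set of each gene (y axis), in 4 comparisons, filled where the adjusted p is under 0.05. SGK1 reaches -2.52 for PLS-123 and -1.46 for 10 μM ibrutinib. All 1 μM ibrutinib intervals include 0.

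In order of level, SGK1 ran PLS-123, 10 μM ibrutinib, then vehicle and 1 μM ibrutinib, and only the last pair did not differ. IRS1 had the same order, and neither its lower pair nor its upper pair differed beyond the test. For AKT2, PLS-123 was lowest and did not pass the test against its neighbour, 10 μM ibrutinib. AKT1 was lowest with 1 μM ibrutinib, followed by vehicle, PLS-123 and 10 μM ibrutinib. PIK3CD was lowest with vehicle, followed by 1 μM ibrutinib, PLS-123 and 10 μM ibrutinib. For both genes no neighbouring pair of groups passed the test. PIK3IP1 stood at 7.22 ± 0.07 with PLS-123, 7.23 ± 0.03 with 10 μM ibrutinib and 6.85 ± 0.19 with 1 μM ibrutinib, against 6.82 ± 0.03 with vehicle (SD, n = 3 each).

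Over the 12 arrays, which share the 4 treatments, the Pearson correlation between SGK1 and IRS1 was 0.96, that of IRS1 with PIK3IP1 was -0.90, that of AKT1 with PIK3CD was 0.89 and that of AKT1 with AKT2 was -0.38. Among 12039 genes whose brightest probe set was not dim, the patterns most like that of SGK1 were those of PLEK (0.99), a substrate of protein kinase C that binds PI3K lipids, CNOT7 (0.99), an enzyme that shortens poly(A) tails, and CEBPB (0.99), a transcription factor. PLEK differed from vehicle by -2.80 with PLS-123 and by -1.77 with 10 μM ibrutinib, while CNOT7 had -0.34 and -0.22. Those most like IRS1 were WAPL (0.98), which releases cohesin from chromatin, PIP5K1B (0.98), a kinase that makes the lipid PI3K acts on, and SERPINI1 (0.97), a protease inhibitor. PIP5K1B differed from vehicle by -1.74 with PLS-123 and by -1.31 with 10 μM ibrutinib. Those most like PIK3IP1 were AREL1 (0.98), MYH10 (0.98), a non-muscle myosin, and CSTB (0.97), an inhibitor of cathepsins.

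Further genes of the pathway were taken from 7 lists, in which 67 of 76 genes were measured. By their brightest probe sets 7 of the 67 were dim. The shares over all genes take in every dim gene, and shares among genes of like level were not computed. With PLS-123, 18 of the 67 fell and 13 rose, where 12.8% of all genes were lower and 7.54% higher. With 10 μM ibrutinib 8 fell and 11 rose, where 5.82% of all genes were lower and 6.71% higher. None passed with 1 μM ibrutinib, as over all genes (0%). Their median difference was -0.08 with PLS-123 and 0.01 with 10 μM ibrutinib, beside -0.04 and -0.02 over all genes. At 1 μM, PLS-123 against ibrutinib, 14 were lower and 14 higher, where 10.1% of all genes were lower and 5.78% higher. The single lists hold few genes, and nothing particular to a list is read from its counts.

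**Figure D4:**
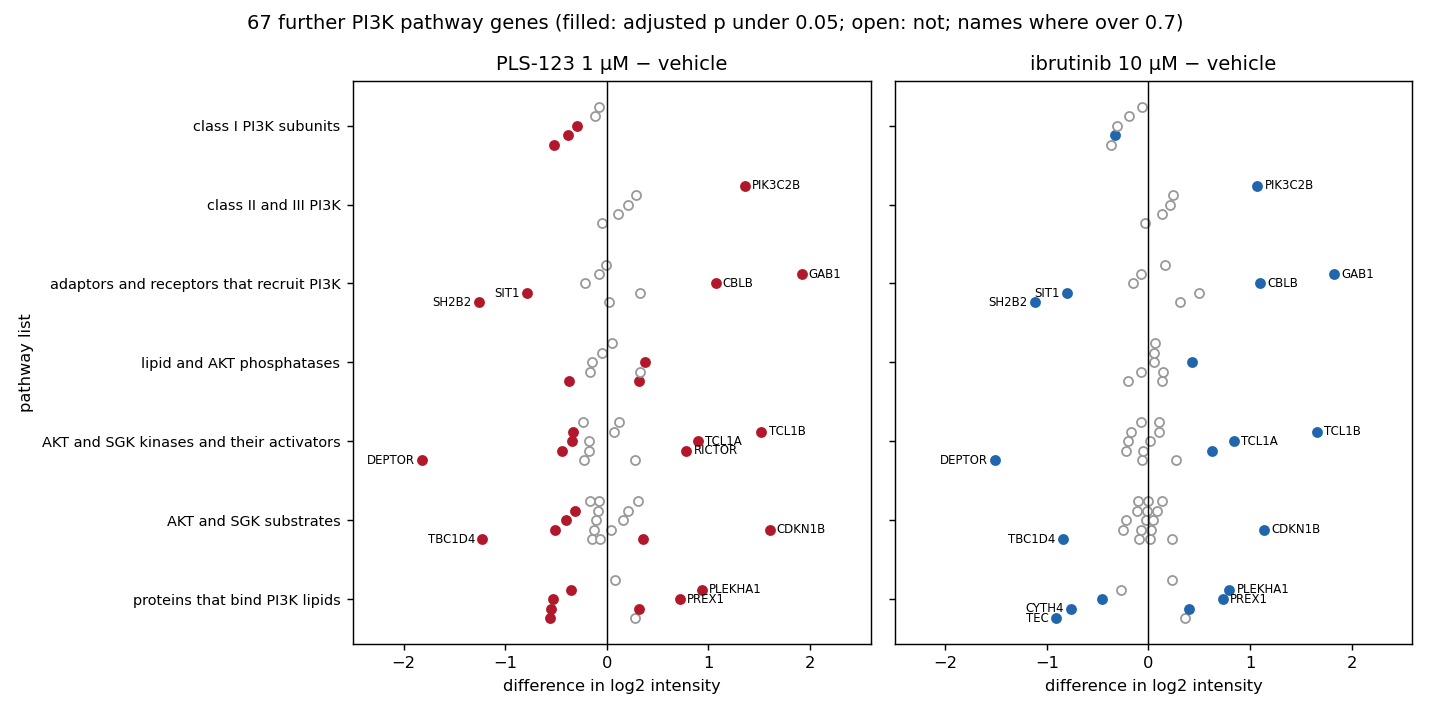
Difference in log2 intensity (x axis) of 67 further genes of the pathway by list (y axis), PLS-123 minus vehicle on the left and 10 μM ibrutinib minus vehicle on the right, filled where the adjusted p is under 0.05 and named where the difference exceeds 0.7. DEPTOR reaches -1.82 and GAB1 1.92 with PLS-123.

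Of 5 other class I PI3K subunits, 3 fell with PLS-123 and none rose (all genes: 12.8% lower, 7.54% higher), and 1 fell with 10 μM ibrutinib (all genes: 5.82% lower). The catalytic subunit PIK3CG (p110 gamma) averaged 7.98 ± 0.15 with PLS-123 and 8.50 ± 0.10 with vehicle (-0.52, adjusted p = 0.0018), and had -0.33 with 10 μM ibrutinib (adjusted p = 0.0433). The regulatory subunit PIK3R3 had -0.38 with PLS-123 and the catalytic subunit PIK3CB (p110 beta) had -0.29 (adjusted p = 0.012 and 0.0387), while PIK3R5 (-0.08) and the dim PIK3R6 (-0.12) did not pass. Of 5 genes of class II and III PI3K, PIK3C2B rose (7.54% of all genes did so with PLS-123), with 8.62 ± 0.08 on the PLS-123 arrays and 7.27 ± 0.10 on the vehicle arrays (1.36, adjusted p = 1.09e-07), and by 1.07 with 10 μM ibrutinib. PIK3C2A (0.29) and PIK3R4 (0.21), the partner of the class III enzyme, did not pass with PLS-123.

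Of 9 adaptors, receptors and related proteins at the step where PI3K is recruited, 2 fell and 2 rose with each of PLS-123 and 10 μM ibrutinib. The shares over all genes were 12.8% and 7.54% with PLS-123, and 5.82% and 6.71% with 10 μM ibrutinib. SH2B2, an adaptor of the insulin and B-cell receptors, averaged 8.18 ± 0.05 with PLS-123 and 9.44 ± 0.07 with vehicle (-1.26, and -1.12 with 10 μM ibrutinib). SIT1, a membrane adaptor of lymphocytes that dampens receptor signals, had -0.78 with PLS-123 and -0.80 with 10 μM ibrutinib. GAB1, a docking protein for PI3K, rose by 1.92 ± 0.23 with PLS-123 and by 1.83 ± 0.23 with 10 μM ibrutinib. CBLB, a ubiquitin ligase that limits PI3K signaling, rose by 1.07 and 1.10. IRS2, the relative of IRS1, had 0.32 (adjusted p = 0.186) with PLS-123 and 0.50 (adjusted p = 0.0601) with 10 μM ibrutinib. The dim GAB3, a docking adaptor, had -0.21 (adjusted p = 0.299) and 0.31 (adjusted p = 0.176) and did not pass either.

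Of 8 phosphatases that oppose PI3K or AKT, 1 fell and 2 rose with PLS-123, and 1 rose with 10 μM ibrutinib. Over all genes 12.8% fell and 7.54% rose with PLS-123, and 6.71% rose with 10 μM ibrutinib. INPP5D, the lipid phosphatase SHIP1 of blood cells, averaged 8.28 ± 0.08 with PLS-123 and 7.91 ± 0.02 with vehicle (0.38, adjusted p = 0.00696, and 0.43 with 10 μM ibrutinib). INPP5E rose by 0.32 with PLS-123, and INPPL1, the relative SHIP2, fell by 0.37. INPP4A (0.33, adjusted p = 0.0634) and PHLPP2 (-0.17), which removes a phosphate from AKT, did not pass with PLS-123.

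Of 14 kinases related to AKT and SGK and proteins acting on them, 4 were lower and 3 higher under PLS-123, while 1 was lower and 3 were higher under 10 μM ibrutinib. All genes had 12.8% lower and 7.54% higher under PLS-123, and 5.82% and 6.71% under 10 μM ibrutinib. DEPTOR, which inhibits mTOR rather than activating AKT, averaged 9.06 ± 0.04 with PLS-123 and 10.9 ± 0.05 with vehicle (-1.82, and -1.51 with 10 μM ibrutinib). TCL1A and TCL1B, lymphoid proteins that bind AKT and promote its activation, rose by 0.90 and 1.52 with PLS-123 and by 0.84 and 1.66 with 10 μM ibrutinib. RICTOR, the defining subunit of mTORC2, rose by 0.78 with PLS-123 and by 0.62 with 10 μM ibrutinib. PDPK1, the kinase that activates both AKT and SGK, had -0.23 (adjusted p = 0.0552) with PLS-123 and -0.06 with 10 μM ibrutinib. MTCP1, a relative of the AKT-binding protein TCL1A, had 0.28 (adjusted p = 0.108) and 0.27 (adjusted p = 0.176), and neither passed.

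Among 17 substrates of AKT or SGK, 4 were lower and 2 higher with PLS-123 (12.8% and 7.54% of all genes), and 1 was lower and 1 higher with 10 μM ibrutinib (5.82% and 6.71% of all genes). TBC1D4, a Rab regulator that AKT inhibits, had -1.23 with PLS-123 and -0.84 with 10 μM ibrutinib. CDKN1B, the cell cycle inhibitor p27, averaged 8.72 ± 0.17 with PLS-123 and 7.11 ± 0.17 with vehicle, a rise of 1.60, and rose by 1.14 with 10 μM ibrutinib. FOXO1 had -0.41 with PLS-123 (adjusted p = 0.00357) and -0.09 with 10 μM ibrutinib (adjusted p = 0.609), and the cell death protein BAD had -0.51 and -0.25 (adjusted p = 0.00385 and 0.176). FOXO3 (0.21) and CHEK1 (0.31), a checkpoint kinase, did not pass with PLS-123.

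Of 9 proteins that bind the lipids made by PI3K, 4 were lower and 3 higher after PLS-123 (12.8% and 7.54% of all genes), and 3 were lower and 3 higher after 10 μM ibrutinib (5.82% and 6.71% of all genes). PLEKHA1, which binds the product of SHIP phosphatases, rose by 0.94 with PLS-123 and by 0.80 with 10 μM ibrutinib, and PREX1, an activator of RAC, rose by 0.72 and 0.73. DAPP1, an adaptor of B-cell receptor signals, had -0.53 with PLS-123 (adjusted p = 0.00245) and -0.27 with 10 μM ibrutinib (adjusted p = 0.13). CYTH4, a cytohesin of leukocytes, had -0.56 and -0.76. ARAP3 (0.28) and CYTH1 (0.08) did not pass with PLS-123.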

How the data were processed

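Total RNA of OCI-Ly7 cells was labelled as biotin-cRNA and hybridized to 12 arrays. The authors normalized the arrays by RMA (version not given in the sources used here) and deposited intensity values on the linear scale. Log2 was taken here with nothing added. RMA shrinks small differences of dim probe sets and aligns the distributions of the arrays, so a change shared by most transcripts would not show. Differences were fitted with limma 3.58.1 (R 4.3.3), 1 mean per group over all 12 arrays, without 62 control probe sets, with Benjamini-Hochberg adjustment over 54613 probe sets in each of 6 comparisons. The fit was tested on simulated data. Genes were taken from GEO's platform annotation: 41091 probe sets had 1 symbol, 1801 several and 11721 none. Array number, 3 per group, limits precision. The members, lists and tests were chosen with earlier results of these data known. The genes named are the members, from each list up to 4 genes with the smallest adjusted p with PLS-123 and 2 that did not pass, and the 3 genes most correlated with SGK1, IRS1 and PIK3IP1. Alternatives were the methods' t-test, the fitted groups, an intensity trend, a replicate block, scaling, a filter on dim probe sets, the mean over probe sets, an ACTB covariate, a stricter threshold and each array left out.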

Additional observations from a re-analysis of the deposited data

How the results depend on the processing

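The 42 member differences were each computed under the alternatives, 924 values in all. Of these, 843 kept their status, called or not called, 70 lost a call, 10 gained a call and 1 changed sign from a call. That value was PIK3CD with PLS-123 against vehicle by the mean over its probe sets (-0.0081), which did not pass. The 843 include values called in neither setting, such as all those for 1 μM ibrutinib against vehicle. Their number therefore does not measure how firmly the calls held. A further 25 differences that passed in neither setting changed sign, none over 0.138. The shares over all genes given above belong to the main fit, and none are given here for the alternatives. The counts under the alternatives that follow are therefore not read as a result about the members. With PLS-123 against vehicle, 5 members were called, 2 at an adjusted p under 0.01, and 3 to 5 with 1 array left out, the lowest without vehicle A, vehicle C or PLS-123 B. With 10 μM ibrutinib against vehicle, 5 were called, 3 by the methods' t-test, 3 at 0.01 and 4 to 5 with 1 array left out. Between PLS-123 and ibrutinib at 1 μM, 4 were called, 1 by the methods' t-test, 2 by limma on the 2 groups alone, 2 at 0.01 and 7 after quantile normalization. Between ibrutinib 10 μM and 1 μM, 5 were called, 1 by the methods' t-test, 3 by limma on the 2 groups alone, 2 at 0.01 and 2 to 5 with 1 array left out. Between PLS-123 and 10 μM ibrutinib, 1 was called, and 0 by the methods' t-test, by limma on the 2 groups alone or with the ACTB covariate. No member was called with 1 μM ibrutinib against vehicle under any alternative. With the array letter as a replicate block, 4, 4, 0, 4, 5 and 1 members were called in these comparisons (PLS-123, 10 μM and 1 μM ibrutinib against vehicle, PLS-123 and 10 μM ibrutinib against 1 μM ibrutinib, and PLS-123 against 10 μM ibrutinib), PIK3CD with PLS-123 (adjusted p = 0.0577) and AKT1 with 10 μM ibrutinib (0.0727) losing their calls. The labels do not say that the letters mark shared cultures, so the main fit has no block. Residuals of same-lettered arrays correlated between -0.255 and 0.224 over 18 pairs. For 2 of the 12 arrays, the array of another group with the highest residual correlation bore the same letter. The range for unlike letters is not given, and whether the letters pair samples was not tested. Causes of these changes were not tested. Dim probe sets, here 2 of the 20, limit what can be seen of AKT2 and PIK3IP1 by them.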

Other observations

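SGK3, a kinase of endosomes that needs a lipid made by class II and III PI3K, could be read only together with the readthrough gene C8orf44-SGK3, by 3 shared probe sets. The least bright of them (220038_at, mean 4.44) stood at 5.21, 4.74 and 4.95 with PLS-123, against 3.89, 3.74 and 3.74 with vehicle. Its vehicle mean of 3.79 lay below 3.87, the level under which a probe set is called dim. It stood at 4.73, 4.32 and 4.43 with 1 μM ibrutinib and at 4.59, 4.55 and 4.39 with 10 μM. All 9 arrays of the inhibitors were above the 3 vehicle arrays. The limma difference from vehicle was 1.18 ± 0.13 with PLS-123 (adjusted p = 2.39e-05), 0.72 ± 0.13 with 10 μM ibrutinib (adjusted p = 0.0019) and 0.71 ± 0.13 with 1 μM ibrutinib (adjusted p = 0.332, unadjusted 8.86e-05). The brightest, 227627_at (mean 7.41), had -0.17 with PLS-123, and 243264_s_at (mean 5.65) had -0.31. Neither passed in any comparison with vehicle, so the rise was seen by 220038_at only. Which transcript each probe set reads was not tested.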
